A study of Homo sapiens with 16 samples.

Results

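The proteasome subunits described here are the genes whose symbols consist of PSMA, PSMB, PSMC or PSMD followed by digits alone. The count table held 39 such entries among 20531. The immunoproteasome subunits PSMB8, PSMB9 and PSMB10 were set aside by name, and PSMA8 and PSMB11, with mean counts of 0 and 0.0625 over 16 libraries, were below the required mean of 10. The remaining 34 genes were 14 of the core particle (7 PSMA and 7 PSMB) and 20 of the regulatory particle (6 PSMC and 14 PSMD). The member with the fewest reads was PSMD9, with a mean of 36.7 counts, and all 34 passed the filter on low counts in every comparison.

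The proteasome is the large protease that degrades proteins tagged with ubiquitin. Its core particle is a barrel of stacked rings, in which outer rings of alpha subunits (PSMA) gate the entry and inner rings of beta subunits (PSMB) hold the proteolytic sites. The regulatory particle caps the barrel: a base, built on a ring of ATPases (PSMC), unfolds the substrate, and a lid removes its ubiquitin chain. PSMD5, PSMD9 and PSMD10 carry subunit names but are chaperones that help build the base and leave the finished complex.

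The libraries came from the human cell line LNCaP, prostate cancer cells that respond to androgen, and the study asked how SLIRP, an RNA-binding protein examined as a coregulator of transcription, bears on androgen-regulated genes. Cells received 40 nM of either a nonsense control siRNA (NS) or a SLIRP siRNA pool for 24 h and then vehicle (Veh) or 1 nM dihydrotestosterone (DHT, an androgen) for 24 h in serum-free medium. All 4 groups (SLIRP-1nM DHT, SLIRP-Veh, NS-1nM DHT, NS-Veh) were therefore transfected with an siRNA, and each had 4 libraries. The paper took its biological replicates from more than 1 experiment. Which of the 4 numbered replicates came from which experiment is not stated, so the experiment could not be fitted as a batch. The p-values measure the spread between these libraries, which may be partly technical. Where vehicle and DHT libraries were pooled, that spread also held the difference between vehicle and DHT.

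SLIRP, listed under its older symbol C14orf156, was between 45.1 and 63.4 CPM (reads adjusted for the depth of each library) in the 8 NS libraries and between 1.41 and 8.04 CPM in the 8 SLIRP siRNA libraries, a log2 fold change of -3.89 (SE 0.207, FDR 1.38e-15, the quasi-likelihood test of edgeR, Benjamini-Hochberg adjustment). All 7 luminal prostate markers examined were detected in every library, the androgen-induced KLK3 at 25.5 to 400.4 CPM, while KRT5, TP63, DCN and PTPRC, which mark basal, stromal and immune cells, had 0 counts in every library. Of the other 3 markers of such cells, KRT14 and COL1A2 had at most 2 counts and COL1A1 had 4 to 25. With vehicle and DHT pooled, 4 of the 7 luminal markers were lower after SLIRP siRNA, among them FOLH1 by 0.68 on the log2 scale. Within vehicle and within DHT, 5 were lower and 1 was higher. The higher one was KLK3, by 1.11 in vehicle and 0.37 in DHT (FDR 1.04e-06 and 0.00327, edgeR with Benjamini-Hochberg adjustment). What part these changes had in the results was not tested. Totals ran from 436353 to 1689708 counts per library. NS-Veh replicates 1 and 2, the shallowest, and SLIRP-Veh replicate 2 stood apart on the first principal components, so calls that were lost without these 3 libraries are named as such. In bulk RNA, fewer cells of a type and less RNA per cell cannot be told apart.

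Most proteasome subunits changed little after SLIRP siRNA, and the alpha subunit PSMA5, which rose 2.06-fold, stood apart from the rest. With vehicle and DHT libraries pooled (8 against 8), 8 of 34 members were higher (23.5%) and 2 were lower (5.88%) at an FDR of 0.01 (edgeR, Benjamini-Hochberg). Of all 10167 genes tested, 17.8% were higher and 17.4% lower. The 8 that rose were PSMA5, PSMA6, PSMB2, PSMC2, PSMD1, PSMD5, PSMD7 and PSMD9, and the 2 that fell were PSMA2 and PSMD13. The median log2 fold change was 0.031 over the members and -0.015 over all genes tested.

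The members' changes were small beside those of the other genes. Only PSMA5 moved by 1.5-fold or more (1 of 34, 2.94%), against 20.1% of all genes tested, and the largest log2 fold change among the other 33 was 0.55. The median size of the log2 fold change was 0.18 over the members and 0.29 over all genes, of which 38.5% had a lower mean count than any member. For each of the 24 members not called, the 95% interval lay within a 1.34-fold change in either direction, the widest being that of PSMB5. Both particles contributed calls: 3 of 14 core members rose and 1 fell (median log2 fold change 0.029), and 5 of 20 regulatory members rose and 1 fell (median 0.035).

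**Figure D1:**
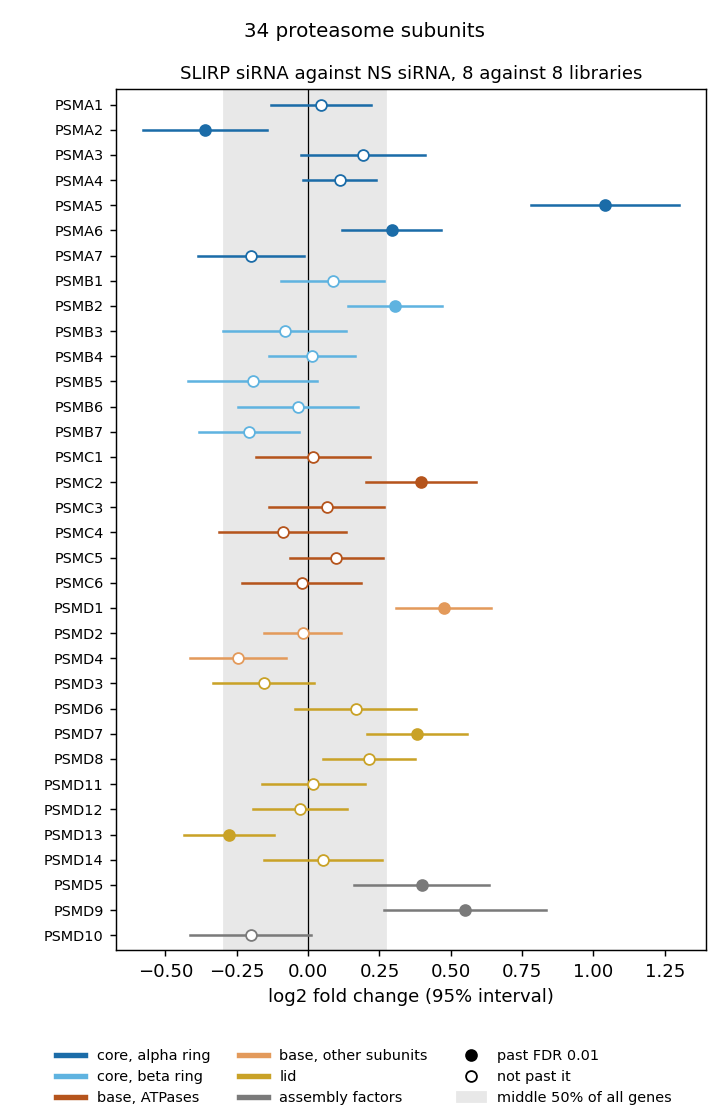
Log2 fold change, SLIRP siRNA against NS, with 95% interval for each of the 34 subunits, coloured by position in the complex, over 8 against 8 libraries. Filled points passed an FDR of 0.01 and the grey band spans the middle 50% of all genes tested; PSMA5, at 1.04, lies alone to the right.

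In the alpha ring, PSMA5 and PSMA6 rose and PSMA2 fell. PSMA5 was read at 20.01, 27.8, 40.3 and 43.4 CPM in the NS libraries with vehicle and at 51.4, 34.7, 47.9 and 33.6 CPM in those with DHT, and at 69.8, 76.7, 82.1 and 76.3 CPM after SLIRP siRNA with vehicle and at 76.9, 66.3, 95.2 and 98.1 CPM after SLIRP siRNA with DHT. Every SLIRP siRNA library was above every NS library. The rise was 2.06-fold (log2 fold change 1.04, SE 0.127, FDR 6.1e-08, edgeR with Benjamini-Hochberg adjustment), and 323 of the 10167 genes tested (3.18%) rose by more. NS-Veh replicates 1 and 2 held only 10 and 12 reads of PSMA5, but without these and SLIRP-Veh replicate 2 the log2 fold change was 0.97. Of all genes tested, 7.75% were separated upwards in this way and 7.36% downwards. Among the members PSMA5 alone was separated upwards and PSMD13 alone downwards.

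PSMA2, another subunit of the alpha ring, was lower. It was read at 90.1, 67.2, 74.0 and 71.5 CPM in the NS libraries with vehicle and at 92.3, 85.6, 88.0 and 90.7 CPM in those with DHT, and at 52.1, 56.4, 60.5 and 71.0 CPM after SLIRP siRNA with vehicle and at 60.0, 52.2, 81.6 and 78.0 CPM after SLIRP siRNA with DHT. The groups overlapped between vehicle-treated libraries and were separate between DHT-treated ones. The log2 fold change was -0.36 (0.779-fold, SE 0.106, FDR 0.00594, edgeR with Benjamini-Hochberg adjustment). It was -0.63 over replicates 1 and 2 and -0.13 over replicates 3 and 4, and the call held in only 6 of 16 fits that left out 1 library. It was lost without NS-Veh replicate 1, any 1 of the NS-1nM DHT libraries, SLIRP-Veh replicates 1, 2 or 3, or SLIRP-1nM DHT replicates 1 or 2, and without the 3 libraries that stood apart. The exons of PSMA2 overlap an annotated gene on each strand and the gene has 3 annotated pseudogenes, so its reads may be shared.

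The remaining alpha subunits moved less. PSMA6 lay between 83.4 and 129 CPM (median 109) in the NS libraries and between 114 and 148 CPM (median 137) in the SLIRP siRNA libraries, a rise of 1.23-fold (log2 fold change 0.29, SE 0.0849, FDR 0.00508, edgeR with Benjamini-Hochberg adjustment). Its groups overlapped, and the call was lost in 6 of the 16 fits without 1 library, those without NS-Veh replicates 2 or 3, NS-1nM DHT replicate 3, SLIRP-Veh replicate 4 and SLIRP-1nM DHT replicates 2 or 3. PSMA6 also has 4 annotated pseudogenes and an overlapping gene on its own strand. PSMA1, PSMA3, PSMA4 and PSMA7 had log2 fold changes of 0.045, 0.19, 0.11 and -0.20 and were not called.

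The windows upstream of PSMA5 and PSMA2 are printed because these alpha subunits moved farthest up and down. They run from 250 bases before to 50 bases after the RefSeq transcription start, 5′ to 3′ on the gene's own strand (GRCh38.p14), and lie at chr1:109426399-109426698 on the minus strand for PSMA5 and at chr7:42932125-42932424 on the minus strand for PSMA2. Capitals mark every match, on either strand, to 5 short words, which may overlap each other. TGANNNNGC is the loose form of the antioxidant response element and TGACTCAGC a stricter form, bound by NRF1 (NFE2L1) and NRF2, which are known to drive proteasome genes. The others are the CCAAT box, the ETS word CCGGAAG, and as GC box the letters GGGCGG.
PSMA5: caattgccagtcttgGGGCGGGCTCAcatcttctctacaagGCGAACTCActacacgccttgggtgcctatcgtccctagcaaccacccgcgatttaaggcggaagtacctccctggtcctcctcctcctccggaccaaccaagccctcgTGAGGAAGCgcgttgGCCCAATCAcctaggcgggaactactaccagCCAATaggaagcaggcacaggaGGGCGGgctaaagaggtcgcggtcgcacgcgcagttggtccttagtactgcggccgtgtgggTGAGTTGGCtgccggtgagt
PSMA2: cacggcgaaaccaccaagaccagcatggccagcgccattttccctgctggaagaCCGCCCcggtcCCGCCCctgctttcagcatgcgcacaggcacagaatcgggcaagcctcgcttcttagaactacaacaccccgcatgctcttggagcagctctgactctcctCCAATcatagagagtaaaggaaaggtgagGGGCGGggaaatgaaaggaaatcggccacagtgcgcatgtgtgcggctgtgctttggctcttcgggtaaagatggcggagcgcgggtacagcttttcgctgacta

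The PSMA5 window held 5 matches to TGANNNNGC, 2 to CCAAT and 2 to GGGCGG, and the PSMA2 window held none to TGANNNNGC, 1 to CCAAT and 3 to GGGCGG. Among the other members that rose, PSMD9 held 4 matches to TGANNNNGC, PSMD5 3 and PSMD1 2. PSMB2 and each PSMA6 window held 1, and PSMC2 and PSMD7 held 0. PSMD13, which fell, held 1. Of members not called, PSMB4 and PSMC4 held 3 each and PSMA1 held 0. Any link between this word and the fold changes was not tested. On hg19, the build of the counts, PSMA5 spans chr1:109941664-109969070 and PSMA2 spans chr7:42956427-42971784, both on the minus strand.

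In the beta ring, none of the 3 subunits that carry the proteolytic sites was called. PSMB5, the chymotrypsin-like site, lay between 78.1 and 133 CPM (median 95.03) in the NS libraries and between 67.3 and 115 CPM (median 88.1) in the SLIRP siRNA libraries, a log2 fold change of -0.19 (95% interval -0.42 to 0.031). PSMB6, the caspase-like site, lay between 44.04 and 82.6 CPM (median 73.0) and between 59.5 and 85.9 CPM (median 71.4), a log2 fold change of -0.037 (-0.25 to 0.17). PSMB7, the trypsin-like site, lay between 69.5 and 84.8 CPM (median 81.5) and between 61.3 and 83.4 CPM (median 68.7), a log2 fold change of -0.21 (-0.38 to -0.034). The groups of all 3 overlapped, and the FDR of PSMB7 was 0.0457 (edgeR with Benjamini-Hochberg adjustment).

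PSMB2, a beta subunit without a proteolytic site, was the only member of this ring that rose. It lay between 108 and 153 CPM (median 131) in the NS libraries and between 144 and 190 CPM (median 159) in the SLIRP siRNA libraries. Within vehicle and within DHT its groups were separate, and they overlapped once both were pooled. The rise was 1.24-fold (log2 fold change 0.31, SE 0.0806, FDR 0.00234, edgeR with Benjamini-Hochberg adjustment). PSMB1, PSMB3 and PSMB4 had log2 fold changes of 0.086, -0.082 and 0.013.

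In the base of the regulatory particle, 1 of 6 ATPases rose. PSMC2 lay between 84.9 and 109 CPM (median 99.4) in the NS libraries and between 109 and 181 CPM (median 125) in the SLIRP siRNA libraries, with an overlap at the margin only. Its rise was 1.31-fold (log2 fold change 0.39, SE 0.0949, FDR 0.000969, edgeR with Benjamini-Hochberg adjustment). Exons of PSMC2 overlap PMPCB on the same strand, so part of its reads may belong to that gene. The other ATPases, PSMC1, PSMC3, PSMC4, PSMC5 and PSMC6, had log2 fold changes between -0.090 and 0.099.

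PSMD1, the large scaffold subunit of the base that holds a ubiquitin receptor, was after PSMA5 the call that held most widely. It was read at 132, 123, 146 and 129 CPM in the NS libraries with vehicle and at 133, 166, 157 and 145 CPM in those with DHT, and at 189, 189, 195 and 159 CPM after SLIRP siRNA with vehicle and at 220, 221, 232 and 193 CPM after SLIRP siRNA with DHT. All SLIRP siRNA libraries were above the NS libraries of the same treatment, and only SLIRP-Veh replicate 4 was below any NS library. The rise was 1.39-fold (log2 fold change 0.47, SE 0.0821, FDR 1.77e-05, edgeR with Benjamini-Hochberg adjustment), and PSMA5 and PSMD1 were the 2 members called in each of 29 alternative fits. PSMD2, the other large scaffold, had a log2 fold change of -0.019, and PSMD4, a ubiquitin receptor, had -0.25 (FDR 0.0148, edgeR with Benjamini-Hochberg adjustment) and was not called. HTR2B overlaps an exon of PSMD1 on the opposite strand.

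**Figure D2:**
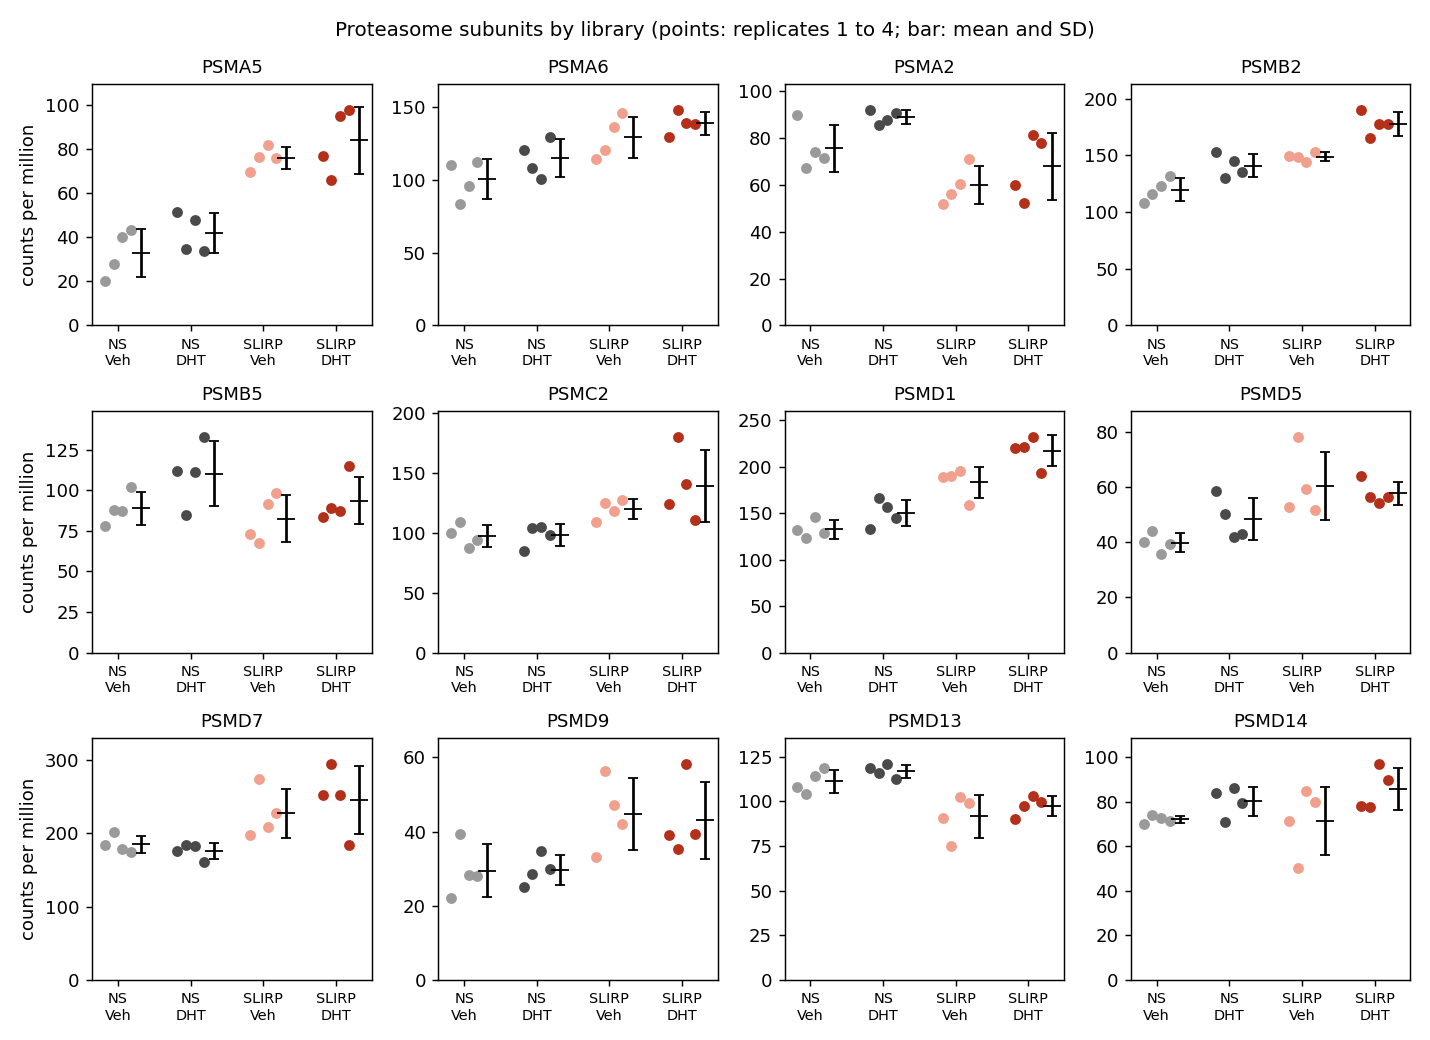
CPM of 12 subunits in the 16 libraries, from 0, with points for replicates 1 to 4 of each group and bars for mean and SD. PSMA5 and PSMD13 show no overlap between the NS and SLIRP siRNA libraries, in opposite directions.

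The PSMD1 window is printed for the base subunit with the lowest p-value, with the same capitals. It lies at chr2:231056617-231056916 on the plus strand (GRCh38.p14), and the gene spans chr2:231921559-232037830 on hg19.
PSMD1: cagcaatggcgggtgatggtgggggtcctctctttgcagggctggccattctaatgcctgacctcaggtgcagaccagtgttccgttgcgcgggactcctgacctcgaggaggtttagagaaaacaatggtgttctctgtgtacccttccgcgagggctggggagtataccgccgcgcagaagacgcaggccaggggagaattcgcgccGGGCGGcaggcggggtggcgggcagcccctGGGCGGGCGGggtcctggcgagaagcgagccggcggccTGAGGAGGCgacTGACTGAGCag

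This window held 2 matches to TGANNNNGC and 3 to GGGCGG, of which the last 2 overlap.

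In the lid, 1 of 8 subunits rose and 1 fell. PSMD13, a scaffold of the lid, was read at 108, 104, 114 and 119 CPM in the NS libraries with vehicle and at 119, 116, 121 and 113 CPM in those with DHT, and at 90.6, 75.1, 102 and 99.0 CPM after SLIRP siRNA with vehicle and at 90.0, 97.3, 103 and 99.7 CPM after SLIRP siRNA with DHT. Every SLIRP siRNA library was below every NS library. The log2 fold change was -0.28 (0.825-fold, SE 0.0776, FDR 0.0038, edgeR with Benjamini-Hochberg adjustment). The call was lost without NS-Veh replicate 4, NS-1nM DHT replicate 3 or SLIRP-Veh replicate 1, and without any filter on low counts.

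PSMD7, which pairs with the lid's deubiquitinase, rose, while the deubiquitinase itself was not called. PSMD7 lay between 161 and 202 CPM (median 181) in the NS libraries and between 183 and 295 CPM (median 240) in the SLIRP siRNA libraries, which overlapped. The rise was 1.302-fold (log2 fold change 0.38, SE 0.0858, FDR 0.000497, edgeR with Benjamini-Hochberg adjustment). PSMD14, the deubiquitinase, lay between 70.0 and 86.2 CPM (median 73.4) and between 50.1 and 97.1 CPM (median 79.0), a log2 fold change of 0.052 (95% interval -0.15 to 0.26). PSMD3, PSMD6, PSMD8, PSMD11 and PSMD12 had log2 fold changes between -0.16 and 0.21 and were not called.

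The PSMD13 window is printed for the lid subunit that was lower in every SLIRP siRNA library. It lies at chr11:236726-237025 on the plus strand (GRCh38.p14), and the gene spans chr11:236966-252984 on hg19.
PSMD13: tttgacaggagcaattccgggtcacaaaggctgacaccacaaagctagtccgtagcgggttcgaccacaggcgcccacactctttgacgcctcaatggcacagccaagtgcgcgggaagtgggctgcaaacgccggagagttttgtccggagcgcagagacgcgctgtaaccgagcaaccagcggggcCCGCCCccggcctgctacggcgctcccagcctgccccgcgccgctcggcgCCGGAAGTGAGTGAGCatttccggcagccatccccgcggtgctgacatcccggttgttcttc

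This window held 1 match to TGANNNNGC, 1 to CCGGAAG and 1 to GGGCGG.

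Of the 3 base chaperones that carry subunit names, PSMD5 and PSMD9 rose. PSMD9 lay between 22.02 and 39.4 CPM (median 28.5) in the NS libraries and between 33.1 and 58.3 CPM (median 40.7) in the SLIRP siRNA libraries, a rise of 1.46-fold (log2 fold change 0.55, SE 0.140, FDR 0.00162, edgeR with Benjamini-Hochberg adjustment). PSMD5 lay between 35.7 and 58.7 CPM (median 42.5) and between 51.7 and 78.3 CPM (median 56.4), a rise of 1.32-fold (log2 fold change 0.40, SE 0.116, FDR 0.00555, edgeR with Benjamini-Hochberg adjustment). The groups overlapped for both genes, and exons of PSMD9 overlap another gene on the same strand. The PSMD5 call was lost without NS-Veh replicates 3 or 4, NS-1nM DHT replicates 3 or 4, SLIRP-Veh replicate 2 or SLIRP-1nM DHT replicate 1. Without the 3 libraries that stood apart it was also lost (log2 fold change 0.34, FDR 0.0222, edgeR with Benjamini-Hochberg adjustment). PSMD10 (gankyrin) had a log2 fold change of -0.20 and was not called.

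Assembly factors outside the members, 5 chaperones of the core and PAAF1, which binds base ATPases, also had positive values. Of these 6, 3 rose and none fell, while 17.8% of all genes tested were higher and 17.4% lower. All 6 log2 fold changes were between 0.26 and 0.73, with a median of 0.44, against -0.015 over all genes. With vehicle alone 1 of the 6 was called, and with DHT 3 were. PSMG1, which helps to assemble the alpha ring, rose by 0.73 on the log2 scale (SE 0.123, FDR 1.08e-05, edgeR with Benjamini-Hochberg adjustment). PSMG3 rose by 0.63 and POMP, which guides the beta ring, by 0.35. PSMG2, PSMG4 and PAAF1, at 0.26, 0.54 and 0.31, were not called.

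With vehicle alone, SLIRP siRNA raised 3 of 34 subunits and lowered none, against 11.8% and 9.95% of 10684 genes tested. These were PSMA5 (log2 fold change 1.05, SE 0.181, FDR 1.63e-05), PSMD5 (0.59, SE 0.168, FDR 0.00596) and PSMD1 (0.44, SE 0.106, FDR 0.00128), by edgeR with Benjamini-Hochberg adjustment. At an unadjusted p under 0.05, 11 members were higher (32.4%) and 3 lower (8.82%), against 20.8% and 20.3% of all genes. PSMD5 was read at 40.03, 44.04, 35.7 and 39.4 CPM in NS-Veh and at 52.7, 78.3, 59.2 and 51.7 CPM in SLIRP-Veh, with no overlap. Without the 3 libraries that stood apart only PSMA5 was called. The PSMD5 call was lost without NS-Veh replicates 1, 3 or 4 or SLIRP-Veh replicates 2 or 3.

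With DHT present, 5 subunits were higher and none lower, against 12.8% and 11.6% of all genes tested. PSMA5 rose by 1.06 on the log2 scale (SE 0.165, FDR 2.86e-06) and PSMD1 by 0.52 (SE 0.0978, FDR 5.75e-05, edgeR with Benjamini-Hochberg adjustment). PSMC2 at 0.47, PSMD7 at 0.46 and PSMB2 at 0.34 were the others. The PSMA5 call held in all 16 fits that left out 1 library but was lost over replicates 1 and 2 alone. Without SLIRP-1nM DHT replicate 2, PSMC2 and PSMD7 were not called; PSMC2 was also lost without NS-1nM DHT replicate 1, and PSMB2 without NS-1nM DHT replicates 2 or 4 or SLIRP-1nM DHT replicates 1 or 3. At an unadjusted p under 0.05, 10 members were higher (29.4%) and 3 lower (8.82%), against 21.4% and 22.1% of all genes.

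The siRNA effects with and without DHT, which come from separate libraries, had the same sign for 25 of 34 members (73.5%) and for 81.7% of 10676 genes. Across the 34 members the log2 fold changes correlated with Pearson's r of 0.837, and with 0.755 without PSMA5. Across all genes r was 0.831. The members of 1 library share its depth, and genes are not independent replicates.

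**Figure D3:**
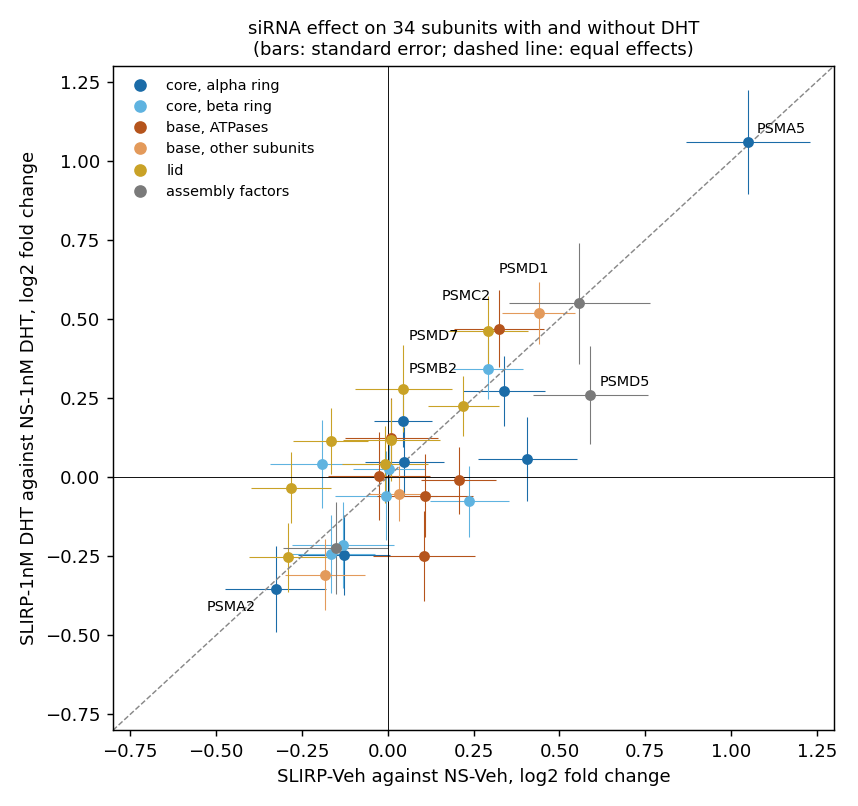
Log2 fold change after SLIRP siRNA in vehicle (horizontal) and in 1 nM DHT (vertical) for the 34 subunits, with standard errors and a dashed line of equal effects. PSMA5 lies near the line at 1.05 and 1.06, away from the cluster around 0.

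DHT itself changed no subunit past the threshold. In NS cells 0 of 34 members were called, against 0.849% of 10367 genes higher and 0.463% lower, while KLK3 rose by 2.68 on the log2 scale (FDR 8.2e-15, edgeR with Benjamini-Hochberg adjustment). At an unadjusted p under 0.05, 3 members were higher (8.82%, against 7.53% of all genes) and none lower (against 6.71%) by edgeR's quasi-likelihood test, and DESeq2 and limma also called 0 members at their adjusted p. In SLIRP siRNA cells 0 were called as well, against 0.636% higher and 0.534% lower of 10684 genes, with 3 higher (8.82%, against 8.02%) and 1 lower (2.94%, against 7.54%) at an unadjusted p under 0.05 by edgeR and again 0 by DESeq2 and limma. The 95% interval of every member lay within a 1.56-fold change in NS cells and within a 1.44-fold change in SLIRP siRNA cells.

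The DHT values leaned to the positive side. In NS cells 25 of 34 members had a positive log2 fold change (73.5%, against 50.1% of all genes), with a median of 0.086 over the members and 0.001 over all genes. In SLIRP siRNA cells 26 were positive (76.5%, against 49.8%), with a median of 0.092. The lid in NS cells had a median of -0.048 and the alpha ring one of 0.17. The member with the largest value in NS cells was PSMA3, an alpha subunit, read at 70.0, 64.9, 63.4 and 60.2 CPM in NS-Veh and at 78.6, 91.8, 76.6 and 81.9 CPM in NS-1nM DHT. These did not overlap, and its log2 fold change of 0.37 had an FDR of 0.131 (edgeR with Benjamini-Hochberg adjustment). The share of all genes separated between 4 and 4 libraries was not counted, here or for the other subunits. In SLIRP siRNA cells the log2 fold change of PSMA3 with DHT was 0.024, and its libraries overlapped.

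**Figure D4:**
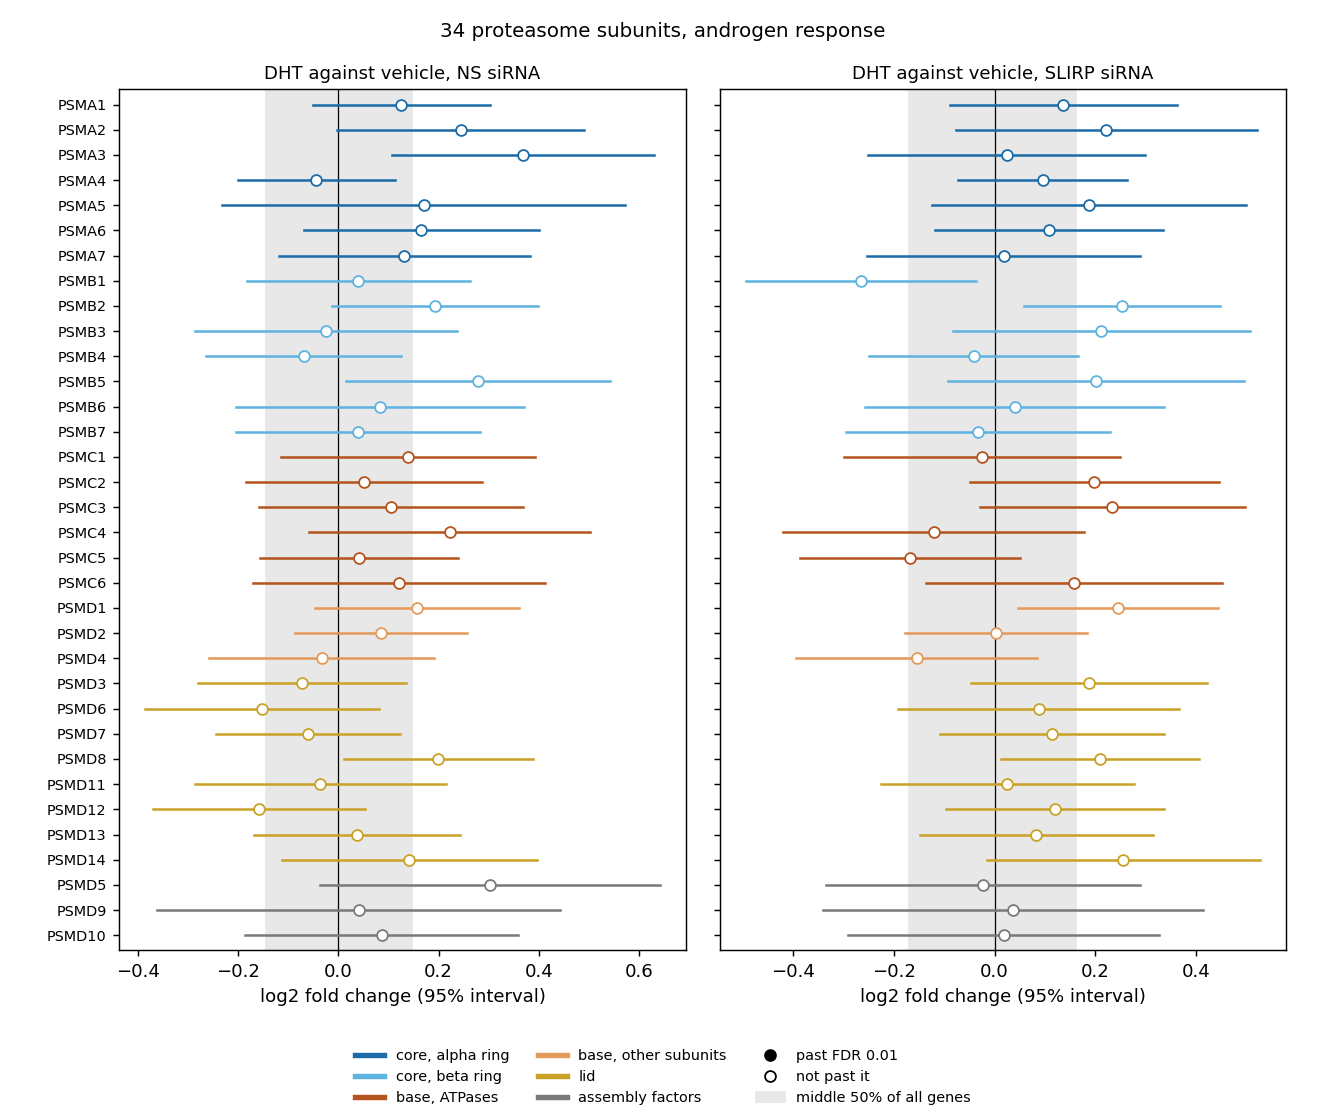
Log2 fold change, 1 nM DHT against vehicle, with 95% interval for each subunit in NS cells and in SLIRP siRNA cells. All points are open, since none passed an FDR of 0.01; 25 and 26 of 34 lie to the right of 0.

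The DHT response did not differ detectably between NS and SLIRP siRNA cells for any subunit. The test of the difference called 0 members and 0% of 10684 genes in either direction, and 0 members had an unadjusted p under 0.05, against 388 of all genes. DESeq2 and limma also called 0 members. The widest 95% bound was that of PSMD5, at a 1.73-fold difference, so a difference of up to that size lay within its interval.

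The core and regulatory particles were compared as the mean, over their members, of each gene's log2 CPM minus its own mean over the 16 libraries. The core score was -0.119 ± 0.0888 (SD, n = 4) for NS with vehicle, 0.035 ± 0.032 for NS with DHT, 0.0077 ± 0.079 for SLIRP siRNA with vehicle and 0.076 ± 0.108 for SLIRP siRNA with DHT. The regulatory score was -0.083 ± 0.033, -0.011 ± 0.029, 0.013 ± 0.045 and 0.080 ± 0.058 in the same order. Both were lowest in NS-Veh and highest in SLIRP-1nM DHT, and the NS-Veh libraries lay below the NS-1nM DHT libraries on the core score without overlap.

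The balance between the particles overlapped between the groups. The core score minus the regulatory score was -0.036 ± 0.080 (SD, n = 4) for NS with vehicle, 0.046 ± 0.049 for NS with DHT, -0.0052 ± 0.047 for SLIRP siRNA with vehicle and -0.0040 ± 0.082 for SLIRP siRNA with DHT. The DHT effect on this difference in NS cells was 0.082 with means and 0.16 with medians over the members, and the siRNA effect in DHT was -0.050 and -0.16. Summed over the 34 members, CPM made up 0.383% ± 0.00842 (SD, n = 4) of the TMM-scaled total for NS with vehicle, 0.404% ± 0.00665 for NS with DHT, 0.410% ± 0.0145 for SLIRP siRNA with vehicle and 0.431% ± 0.0187 for SLIRP siRNA with DHT. The NS-Veh libraries (0.373% to 0.393%) lay below the NS-1nM DHT libraries (0.396% to 0.411%) on this scale. As a share of the unscaled total counts the same groups overlapped, at 0.369% to 0.392% and 0.390% to 0.410%. These sums weight subunits by their read number, and no p-value was computed because the members are not independent.

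**Figure D5:**
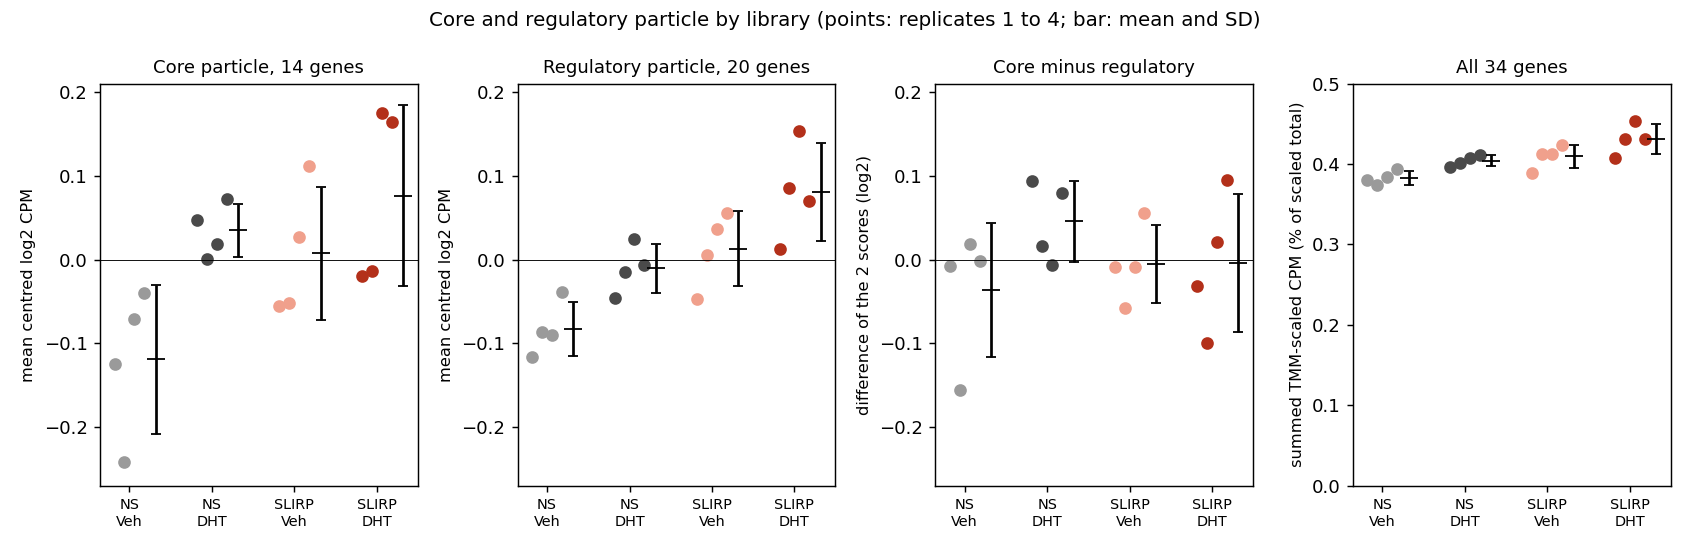
Mean centred log2 CPM of the 14 core and 20 regulatory members, their difference, and their summed CPM in percent of the TMM-scaled total, by library, with points for replicates 1 to 4 and bars for mean and SD. The NS-Veh mean is the lowest on both scores and on the sum, and the difference overlaps 0 in every group.

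Around the complex, other lists of the pathway held a few calls for SLIRP siRNA, where 17.8% of all genes tested were higher and 17.4% lower. Among 5 activators and inhibitors PSME3, the nuclear activator, rose by 0.38 on the log2 scale (FDR 0.000125, edgeR with Benjamini-Hochberg adjustment), and the list's median was -0.13. Of 4 genes listed for the transcription of proteasome genes, NFE2L1, NFE2L2, DDI2 and NGLY1, only NFE2L1 was called. NFE2L1, which drives proteasome genes when the proteasome is impaired, fell by 0.25 (FDR 0.00283, same test). This call was lost in 2 of 13 alternative fits. With vehicle alone NFE2L1 fell by 0.21 and was not called (FDR 0.0448, same test). With DHT it fell by 0.30 (FDR 0.00344, same test). The immunoproteasome subunits PSMB8 and PSMB9 had at most 3 and 7 counts in any library, and PSMB10, with 4 to 27 counts, had a log2 fold change of -0.82 (SE 0.269, FDR 0.0125, same test) and was not called.

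The promoter words were counted over all members with a RefSeq window. Windows were found for 29 of 34 members, 35 windows in all; PSMA7, PSMB1, PSMB6, PSMB7 and PSMD4 had none in the table. TGANNNNGC, on either strand, was in 19 of the 29 members (65.5%) and in 47.1% of 27305 genes, and the stricter TGACTCAGC in 0 members and 0.689% of genes. CCAAT was in 16 members (55.2%, against 39.7%), CCGGAAG in 11 (37.9%, against 12.2%) and GGGCGG in 19 (65.5%, against 48.3%). The 27305 genes were all those with a window and were not limited to genes expressed in these cells, as the members are. A match is a description of the letters and says nothing of binding.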

How the data were processed

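RNA of 16 LNCaP libraries (4 groups of 4) was sequenced by the authors. The deposited estimated counts per gene name RSEM, CASAVA and hg19 in the submitters' processing notes; their annotation and strand setting are not given in the sources used here. A second deposited table, of 13148 genes, holds a score: each library's counts divided by their upper quartile and multiplied by a constant, within a ratio of 1.0103. It served only for an alternative in limma.

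The deposited estimated counts were whole numbers and were used as they stood. edgeR 4.0.16 (R 4.3.3) was run with TMM scaling, filterByExpr and the quasi-likelihood test over all genes, with Benjamini-Hochberg adjustment; calls are at an FDR of 0.01. The effect of the siRNA was fitted on 16 libraries, 8 against 8, with no term for vehicle or DHT. The comparisons within vehicle and within DHT, of DHT in SLIRP siRNA cells and of the 2 DHT responses came from a 4-group model, and DHT in NS cells from the 8 NS libraries. In simulated counts the script recovered most 4-fold changes, with the test of the 2 DHT responses left out of this check. The check did not require recovery of smaller changes, such as those of most members. CPM used TMM library sizes; log2 CPM used a prior count of 2. Totals of 436353 to 1689708 counts leave low members with few reads, and intervals cover the spread between libraries.

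Gene spans and exon overlaps on hg19 came from GENCODE v44 lifted to GRCh37, and promoter windows from RefSeq on GRCh38.p14; 12 of 34 members share exon bases with another gene and 15 have annotated pseudogenes, between which the counting could split reads. Every member could be named with its fold changes. Values by library, or the lowest, median and highest, were given for PSMB5, PSMB6, PSMB7, PSMD14, and in each particle the 4 largest rises and falls past the FDR; in each other list at most the 3 largest past it were named. PSMA3 and PSMD7 were added after their values were seen. The members and lists were chosen with earlier results of these data known.

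Alternatives were DESeq2 1.42.0, limma 3.58.1, other scalings, filters and thresholds, the replicate number as a block, and each library left out in turn. Splits by replicate number and the fit without 3 libraries were chosen after seeing the data. 1 item is not reported here.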

Additional observations from a re-analysis of the deposited data

Results flagged for a closer look

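In each of 148 sets of 4 libraries, 1 set for every group and each measure, the library at either end was compared with the rest by Dixon's test, under which chance marks about 1 in 20. For 10 a single library lay outside. SLIRP-Veh replicate 2, which also stood apart on the principal components, was the outlying library of its group for PSMA1 at 247.4 CPM, for PSMC1 at 128.4 CPM and for PSMD3 at 108 CPM. SLIRP-Veh replicate 1 was so for PSMA4 at 278.2 CPM. Of the NS-Veh libraries, replicate 1 was so for PSMB3 at 98.07 CPM and replicate 2 for PSMD2 at 294.4 CPM and for the core minus regulatory score at -0.1556. With DHT, NS replicate 4 lay outside for PSMB4 at 186.5 CPM, SLIRP replicate 4 for PSMB5 at 115 CPM and SLIRP replicate 1 for PSMD2 at 228.2 CPM. None of these genes was called in any comparison.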

How the results depend on the processing

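With SLIRP siRNA over 16 libraries, 8 members were higher and 2 lower. The lower count was 4 at an FDR of 0.05, 1 with no filter on low counts, 1 over replicates 1 and 2 alone, 0 over replicates 3 and 4 alone and 1 without the 3 libraries that stood apart. The higher count was 3 over either pair of replicates. Leaving out 1 library at a time gave 6 to 9 higher and 0 to 2 lower, with 0 lower without NS-1nM DHT replicate 3 or SLIRP-Veh replicate 1. In vehicle the 3 higher members became 8 at an FDR of 0.05, 2 with DESeq2 and 1 over replicates 3 and 4 or without the 3 libraries, and 2 to 3 with 1 library left out; 1 was lower at an FDR of 0.05. In DHT the 5 higher members became 3 in limma on the normalized table, 3 over replicates 1 and 2, 2 over replicates 3 and 4, and 3 to 5 with 1 library left out, 3 without SLIRP-1nM DHT replicate 2; 2 were lower at an FDR of 0.05. DHT and the difference of the DHT responses gave 0 calls in edgeR, DESeq2 and limma.

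Replicate numbers were not taken to pair the libraries, since in no pair of groups were all 4 correlations of same-numbered deviations over 0.1 (6965 genes). They were so for 3 of 4 numbers between NS-Veh and NS-1nM DHT (mean 0.137, the own number best for 3 of 4), for 2 of 4 between the SLIRP siRNA groups, and for 1 and 0 of 4 between siRNAs in DHT and in vehicle. With a replicate block, 9 members were higher and 2 lower over 16 libraries, 4 higher in vehicle and 5 in DHT, and the rest gave 0.

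The siRNA effect on the core minus regulatory score was 0.031 in vehicle, and -0.040 with medians in place of means. In DHT it was -0.050, and -0.16 with medians, -0.12 over replicates 1 and 2 and 0.021 over replicates 3 and 4. The DHT effect in NS cells was 0.082, and 0.16 with medians; in SLIRP siRNA cells it was 0.0012. Leaving out 1 library gave -0.0086 to 0.050 and -0.083 to -0.018 for the siRNA effects and 0.042 to 0.10 and -0.032 to 0.033 for the DHT effects. The fold change of PSMD14 was 0.052, and -0.097 over replicates 1 and 2; that of PSMB6 was -0.037, and -0.082 to 0.0082 with 1 library left out, the positive value without SLIRP-Veh replicate 1. In limma on the normalized table the median of all genes was -0.065 for SLIRP siRNA and -0.113 in DHT, so those changes are relative to it. The causes of these changes were not tested. Splits by replicate and the fit without 3 libraries were chosen after seeing the data. Depth limits the low members most, PSMD9 having 11 to 60 counts per library.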

Other observations

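Genes that bring substrates to the proteasome were counted as further lists of the pathway, by the same edgeR quasi-likelihood test with Benjamini-Hochberg adjustment. After SLIRP siRNA this test called 17.8% of all 10167 genes higher and 17.4% lower. Of 13 receptors and associated factors, UCHL5, a deubiquitinase that docks on the base, rose by 0.93 on the log2 scale after SLIRP siRNA (FDR 2.63e-06), and 3 fell. Among those 3, ZFAND5 fell by 0.45 (FDR 8.61e-06) and the shuttle RAD23B by 0.41 (FDR 8.69e-06), and the list's median log2 fold change was -0.039.

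VCP, the unfoldase that extracts ubiquitinated proteins, fell by 0.38 (FDR 6.93e-06, edgeR with Benjamini-Hochberg adjustment), the only call among 4 genes of its list. Of 5 genes for ubiquitin and its activation, 3 fell and none rose, with a median of -0.23. Of all genes tested, 17.4% were lower and 17.8% higher. The 3 that fell were RPS27A by 0.36 and UBB by 0.23, which encode ubiquitin, and UBA1, the activating enzyme, by 0.21. These 3 calls were lost in 2, 4 and 5 of 13 alternative fits, all with the same direction. With vehicle alone 0 of the 5 were called, and with DHT 1 was, UBB. RPS27A has 19 annotated pseudogenes and UBB has 5, so their reads may be shared. With DHT in SLIRP siRNA cells, 1 of 6 assembly chaperones rose, PSMG1, by 0.56 on the log2 scale (FDR 0.00976, same test). Of all 10684 genes tested there, 0.636% were higher. In NS cells DHT gave 0 calls among the 6.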
